A study of Mus musculus with 90 samples.

Results

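The genes described here are Arntl, Clock, Npas2, Nfil3, Cry1 and Bhlhe40, 6 of the 18223 genes in the deposited tables. They were chosen by symbol, under a label of circadian clock activators and genes in the phase of Arntl. Bhlhe40 encodes a repressor and was negatively related to Arntl among animals of the same treatment, against that label. All 6 passed the filter on low counts, and each was measured in the liver of 90 female Diversity Outbred (J:DO) mice, an outbred stock in which every animal carries its own mixture of founder genomes. Vehicle animals (n = 41) received sterile distilled water by mouth and zileuton animals (n = 49) received 300 mg/kg of zileuton, an inhibitor of 5-lipoxygenase, once a day over 7 days. Animals of both groups were 6 to 20 weeks old, each gave 1 library from 25 mg of liver, and the labels give no time of day for dosing or for tissue collection.

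The mammalian clock is a feedback loop of transcription. ARNTL (BMAL1) pairs with CLOCK or with NPAS2, and the pair binds E-boxes in the genes of its own repressors, the PER and CRY proteins, and in those of the REV-ERB receptors and the PAR bZIP factors. REV-ERB and ROR receptors then compete for RORE elements in Arntl, Npas2, Nfil3 and Cry1, so these genes are known to peak in mouse liver at a time of day when Dbp transcripts are low. Liver is a tissue in which this loop drives daily rhythms of many metabolic genes.

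Library totals ran from 12664579 to 41360187 estimated counts with a median of 25535799. Levels are given as CPM, the usual count scaled to library size, after adjustment between libraries. Summed CPM of 7 hepatocyte markers lay between 72990 and 179614 in every library, and none of these markers was at 0 throughout. Skeletal muscle markers summed to 3196 CPM in vehicle replicate 8 and to 1966 CPM in zileuton replicate 24, while the next highest sums were 1.15 and 1.03 CPM. Fold changes of the 6 genes without both libraries were within 0.05 on the log2 scale of those given here. Animal numbers fall into 8 runs of 50, whose meaning the labels do not give, and position is used here for an animal's place in its run. Vehicle animals held positions from 13 to 20 and zileuton animals from 25 to 50, so that treatment and position cannot be told apart.

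Arntl, Npas2, Nfil3, Cry1 and Clock were lower in zileuton than in vehicle livers and Bhlhe40 was higher (edgeR quasi-likelihood test, adjusted p under 0.05 for all 6). Log2 fold changes ran from −2.35 for Npas2 to 0.35 for Bhlhe40, and the median of the 6 was −1.05 against −0.01 over all 13248 genes tested. Of those genes 29.3% passed the test, 14.8% as lower and 14.4% as higher. In bulk liver, fewer cells of a type and less RNA per cell cannot be told apart.

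Arntl encodes BMAL1, the partner common to both activator complexes. Its gene lies on chromosome 7, from 113207465 to 113314126 on the plus strand of mm10. Short RORE forms near its start are shown because the receptors that bind them are the link by which the loop controls this gene. Windows of 30 bases from RefSeq (GRCm38.p6, the same build) are printed from the gene's own strand with the match in capitals.
Arntl, chr7:113207494-113207523: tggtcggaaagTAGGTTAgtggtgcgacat
Arntl, chr7:113207530-113207559: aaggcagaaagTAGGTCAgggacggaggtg
The first match starts 6 bases before the RefSeq start at 113207511 and the second starts 30 bases after it. A match describes letters in this window and is not evidence of binding.

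Arntl was at 1.47 CPM in the lowest vehicle library, 25.0 at the median and 34.5 in the highest, against 0.692, 4.94 and 23.6 CPM in zileuton livers. All 49 zileuton animals were below the vehicle median, 23 of 41 vehicle animals were above every zileuton animal, and the lower ends of both groups overlapped. Means were 22.6 ± 8.13 (SD, n = 41) and 6.82 ± 5.74 CPM (SD, n = 49). The log2 fold change was −1.73 ± 0.208 (SE), that is 3.32-fold lower, with an adjusted p of 2.16e-10 in the edgeR test.

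Clock encodes the usual partner of BMAL1 (chromosome 5, from 76209868 to 76304792, minus strand). It was at 22.5, 47.8 and 71.7 CPM in the lowest, median and highest vehicle libraries and at 19.6, 36.9 and 59.3 CPM in zileuton livers. The groups overlapped over most of their range, although 45 of 49 zileuton animals were below the vehicle median. Its log2 fold change of −0.38 ± 0.068 (SE) was the least of the 5 decreases, 1.3-fold, with an adjusted p of 5.26e-06.

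Npas2 encodes a paralogue of CLOCK that can take its place beside BMAL1 (chromosome 1, from 39193731 to 39363236, plus strand). Vehicle livers held 0.14 CPM at the lowest, 10.3 at the median and 21.4 at the highest. Zileuton livers held 0 CPM at the lowest, 0.795 at the median and 16.8 at the highest. Of 49 zileuton animals 46 were below the vehicle median and 7 were below every vehicle animal. The library with 0 counts, zileuton replicate 42, had a limit of 0.126 CPM for 3 counts and held 30.1 CPM of Clock. The log2 fold change of Npas2 was −2.35 ± 0.332 (SE), 5.09-fold lower, with an adjusted p of 2.67e-08 in the edgeR test. Its size depended on the scale and on 1 run, at −3.46 with limma-voom and quality weights, −3.17 on the deposited normalized values with a pseudocount of 1 and −3.04 in edgeR without run 4.

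Scaled to the union of annotated exons (CPM per kb), Npas2 made up 37.2% of the summed level of Npas2 and Clock in the median vehicle liver. The share ran from 1.44% to 57.9% among vehicle animals. In zileuton livers it was 5.83% at the median and ran from 0% to 52.5%. The median share of Npas2 transcripts was thus lower in zileuton livers, with no test, while single animals of both groups lay at both ends. The share depends on the lengths used, 13727 bases for Clock and 4791 for Npas2, which take every annotated exon as present.

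Nfil3 encodes E4BP4, a repressor that competes with PAR bZIP factors at D-boxes (chromosome 13, from 52967209 to 52981073, minus strand). Its RefSeq window held TAGGTCA on the strand opposite to the gene, printed here as the gene's strand reads, starting 12 bases before the start at 52981039.
Nfil3, chr13:52981033-52981062: gcgctcggaacTGACCTActaacacacatc
Nfil3 was at 10.9, 41.1 and 65.3 CPM in the lowest, median and highest vehicle libraries and at 7.43, 14.6 and 59.0 CPM in zileuton livers. Both groups covered much of the same range, with 47 of 49 zileuton animals below the vehicle median. The log2 fold change was −1.17 ± 0.136 (SE), 2.25-fold lower, with an adjusted p of 1.01e-10, the lowest among the 6 genes.

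Cry1 encodes a cryptochrome, a repressor of the BMAL1 complexes that is known for a late phase set by E-boxes together with ROREs (chromosome 10, from 85131700 to 85185064, minus strand). Its window held an E-box, CACGTG, and the related CACGTT on the opposite strand, starting 60 and 79 bases before the RefSeq start at 85185054.
Cry1, chr10:85185097-85185126: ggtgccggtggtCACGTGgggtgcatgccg
Cry1, chr10:85185116-85185145: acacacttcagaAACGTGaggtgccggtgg
Cry1 was at 5.0, 12.2 and 27.5 CPM in the lowest, median and highest vehicle libraries and at 3.58, 6.04 and 14.9 CPM in zileuton livers. Of 49 zileuton animals 12 were below every vehicle animal and 47 were below the vehicle median. The log2 fold change was −0.93 ± 0.111 (SE), 1.91-fold lower, with an adjusted p of 1.87e-10.

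Bhlhe40 encodes DEC1, a repressor that binds E-boxes (chromosome 6, from 108660629 to 108666925, plus strand). It was at 28.3, 66.7 and 139 CPM in the lowest, median and highest vehicle libraries and at 37.3, 90.2 and 168 CPM in zileuton livers. The groups overlapped over nearly the whole range, with 39 of 49 zileuton animals above the vehicle median. The log2 fold change was 0.35 ± 0.112 (SE), 1.28-fold higher, with an adjusted p of 0.0118 in the edgeR test. This call was lost without run 6 (log2 fold change 0.30, adjusted p = 0.0557), without run 7 (0.28, 0.0529) and without run 8 (0.28, 0.0813). Its direction was opposite to that of the other 5 genes.

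**Figure D1:**
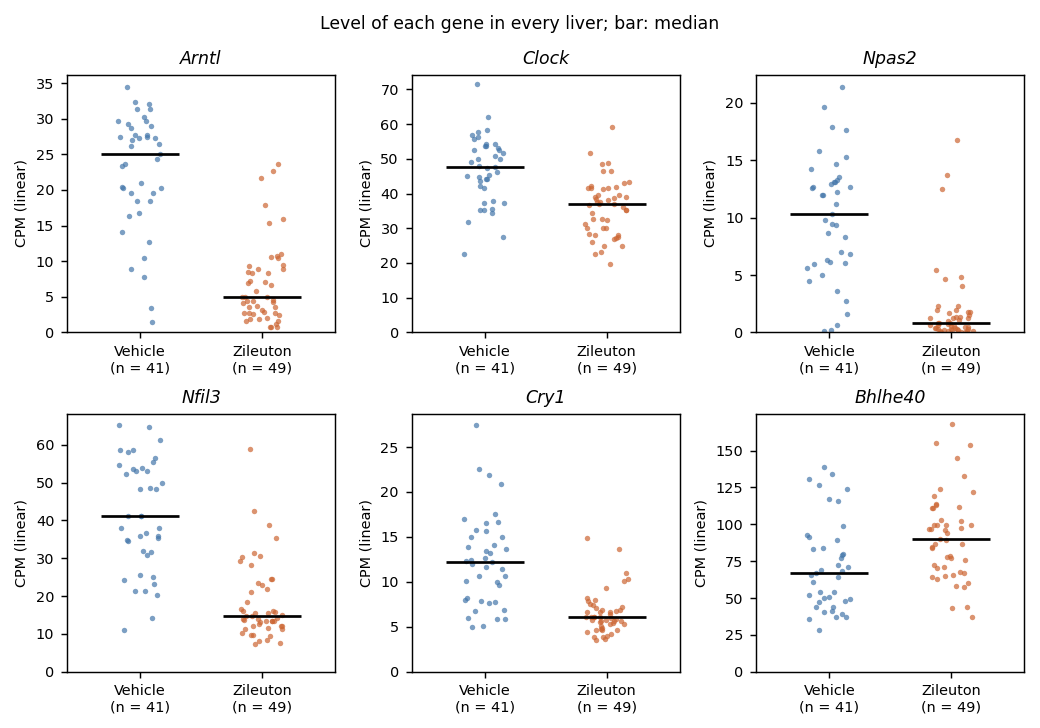
Each point is the level of a gene in 1 liver in CPM (linear axes from 0), with vehicle (n = 41) and zileuton (n = 49) animals apart and bars at the medians. Arntl medians are 25.0 and 4.94 CPM and Npas2 medians 10.3 and 0.795 CPM, while Bhlhe40 medians are 66.7 and 90.2 CPM.

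Promoter matches were set against all genes of the same RefSeq table, which held windows (250 bases before to 50 after a start, 300 bases) for 5 of the 6 genes and 27025 genes in all. Forms were searched on both strands and none contains another. The E-box was CACGTG with CACGTT counted as its variant. ROREs were searched as TAGGTCA, as the form TGGGTCA and as the form TAGGTTA. D-boxes were searched as TTATGCAA or as the form TTATGTAA, and the CRE as TGACGTCA. RORE forms were in the windows of Arntl and Nfil3, 2 of 5 genes, against 8.93% of all genes. An E-box was in 1 of 5, Cry1, against 8.09% of all genes, and no form was found in the windows of Clock and Npas2. Among 8 repressors of the opposite phase, 7 had windows, 5 of these held an E-box or its variant (13% of all genes) and 0 held a RORE form. Among 7 PAR bZIP factors and outputs, 6 had windows, 1 of these (Tef) held an E-box or its variant and 0 held a RORE form. D-box forms were in 0 of the 5 genes, 2 of the 7 repressors and 0 of the 6 PAR bZIP factors and outputs, against 1.98% of all genes. The CRE was in 0, 0 and 1 of them in the same order, against 2.03% of all genes. These counts are descriptions of few genes, with no test.

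Per length, the order of the 6 genes differed between the groups. At the vehicle median, Nfil3 stood at 20.3 CPM per kb, Bhlhe40 at 14.2, Cry1 at 3.66, Clock at 3.49, Arntl at 3.32 and Npas2 at 2.15. Among zileuton livers Bhlhe40 led with 19.2 CPM per kb, followed by Nfil3 at 7.21, Clock at 2.69, Cry1 at 1.81, Arntl at 0.656 and Npas2 at 0.166. The ranges over animals of all neighbours in both orders overlapped.

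Within each run, the mean level of Arntl, Npas2, Nfil3, Cry1 and Clock was lower in zileuton than in vehicle animals in 8 of 8 runs. Differences in mean log2 CPM between groups ran from −3.14 to −1.14 for Arntl, from −5.53 to −1.61 for Npas2, from −1.97 to −0.66 for Nfil3, from −1.41 to −0.35 for Cry1 and from −0.86 to −0.15 for Clock. Runs held 3 to 6 vehicle and 2 to 12 zileuton animals, with 2 zileuton animals in run 5. The direction was thus shared by all runs for these genes, and the size varied.

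Bhlhe40 was higher with zileuton in 6 runs and lower in the other two, by −0.24 in run 1 and −0.42 in run 4. Its differences in runs 6, 7 and 8 were 0.75, 1.43 and 1.00. Vehicle means varied between 5.21 in run 7 and 6.67 in run 4 on the log2 CPM scale, and zileuton means between 6.25 and 6.64. The spread of the differences therefore lay mostly on the vehicle side. A test of whether the treatment difference varied between runs (edgeR, 7 degrees of freedom, added after seeing the data) gave F = 3.87 for Bhlhe40 with p = 0.00117 and an adjusted p of 0.104, and adjusted p-values from 0.438 to 0.803 for the other 5 genes. Over all genes 0.189% passed that test, and none of the 6 did.

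**Figure D2:**
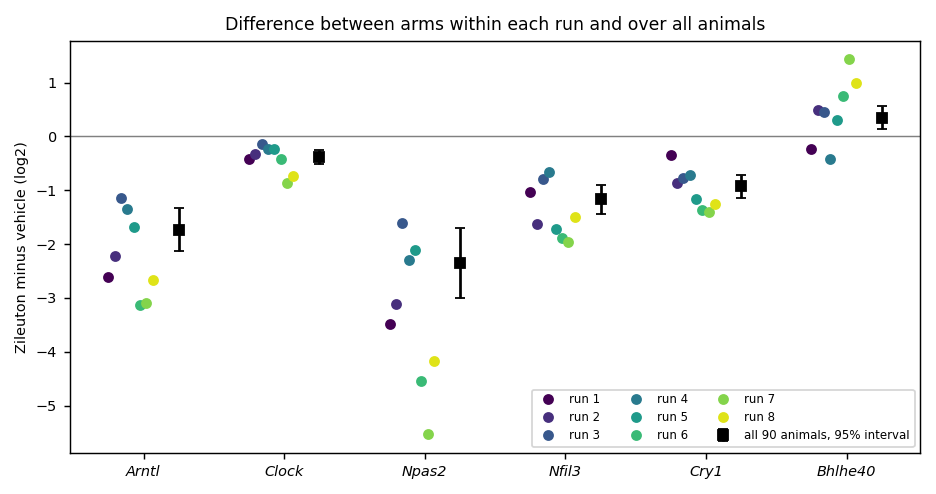
Coloured points are the differences in mean log2 CPM between zileuton and vehicle animals within each of 8 runs, and black squares are the log2 fold changes over all 90 animals from edgeR with 95% intervals. Points of 5 genes lie below 0 in every run, and those of Bhlhe40 lie on both sides, from −0.42 to 1.43.

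Position was then examined within each group, where it is not tied to treatment. Across the 49 zileuton animals, Arntl was lower at higher positions (Pearson r = −0.361, permutation p = 0.0103, and Spearman rho = −0.400, p = 0.00445). Npas2 had r = −0.396 (permutation p = 0.00455) and rho = −0.401 (p = 0.00436). Nfil3 had r = −0.352 (permutation p = 0.0132) and rho = −0.342 (p = 0.0167), and Clock r = −0.337 (p = 0.0178) and rho = −0.360 (p = 0.011). Cry1 did not pass, with r = −0.173 (permutation p = 0.238) and rho = −0.113 (p = 0.442).

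Bhlhe40 went the other way among zileuton animals, with r = 0.448 (permutation p = 0.00146) and rho = 0.428 (p = 0.00245). These p-values belong to 12 relations, 6 genes in 2 groups, and are not adjusted over these genes, which were chosen with earlier results known. Leaving out the 2 animals farthest from the median position gave r = −0.340 for Arntl, −0.369 for Npas2, −0.357 for Nfil3, −0.280 for Clock, whose relation then no longer passed, and 0.394 for Bhlhe40. With run means removed r was −0.333, −0.372, −0.347, −0.284 and 0.525 in the same order.

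Within the 5 runs that held at least 6 zileuton animals, r of Arntl with position was −0.561 in run 1, 0.299 in run 2, −0.681 in run 3, −0.772 in run 4 and −0.577 in run 8. Run 2 also had r above 0 for Clock (0.184), Npas2 (0.259) and Nfil3 (0.114), so the relation of these genes did not hold there. Bhlhe40 had r above 0 in all 5 of these runs, from 0.370 to 0.798.

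By level, the median of Arntl was 9.43 CPM in 13 zileuton animals at positions 25 to 31, 4.08 in 13 at 32 to 38, 4.37 in 11 at 39 to 44 and 3.39 in 12 at 45 to 50. Even the first of these medians was below the vehicle median of 25.0 CPM. Npas2 medians over the same bins were 1.53, 0.723, 0.512 and 0.339 CPM. Nfil3 stood at 23 CPM in the first bin and at 14.2, 13.3 and 13.8 in the others, so its difference lay between the first bin and the rest. Bhlhe40 medians were 72.5, 90.2, 99.5 and 98.5 CPM, the first of them close to the vehicle median of 66.7.

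In the fit over all genes no slope passed. Log2 slopes per 10 positions among zileuton animals were −1.10 ± 0.377 (SE) for Npas2, −0.62 ± 0.207 for Arntl, −0.37 ± 0.117 for Nfil3, −0.15 ± 0.058 for Clock, −0.14 ± 0.085 for Cry1 and 0.28 ± 0.080 for Bhlhe40, with edgeR adjusted p-values from 0.116 to 0.494. Of 13248 genes 0% passed edgeR in this group, none passed limma-voom either, and 1757 had an unadjusted p under 0.05.

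Among vehicle animals, which span positions 13 to 20 only, Bhlhe40 had r = −0.345 with position (permutation p = 0.0274) and rho = −0.373 (p = 0.0164), and the relation no longer passed without the 2 farthest animals (r = −0.280) or with run means removed (−0.217). The other 5 genes had r between 0.049 and 0.198, none passing. Within the 3 runs with at least 6 vehicle animals, r of Bhlhe40 was −0.294, −0.001 and 0.034. In the edgeR fit 0.00755% of genes passed in this group, which was 1 gene, Mylpf, a skeletal muscle gene named after its value was seen. Vehicle replicate 8, whose skeletal muscle markers summed to 3196 CPM, was at position 14. Its part in this call was not tested.

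The difference between the slopes of the groups was tested as an interaction. For Bhlhe40 the zileuton slope exceeded the vehicle slope by 1.31 ± 0.408 (SE, log2 per 10 positions), with p = 0.00189 and an edgeR adjusted p of 0.859. The other 5 genes had adjusted p-values of 0.999. Of all genes 0.00755% passed, again 1 gene (Ankrd23, a muscle gene named after its value was seen). That call was lost without the vehicle library with muscle transcripts, and also with run as a covariate.

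**Figure D3:**
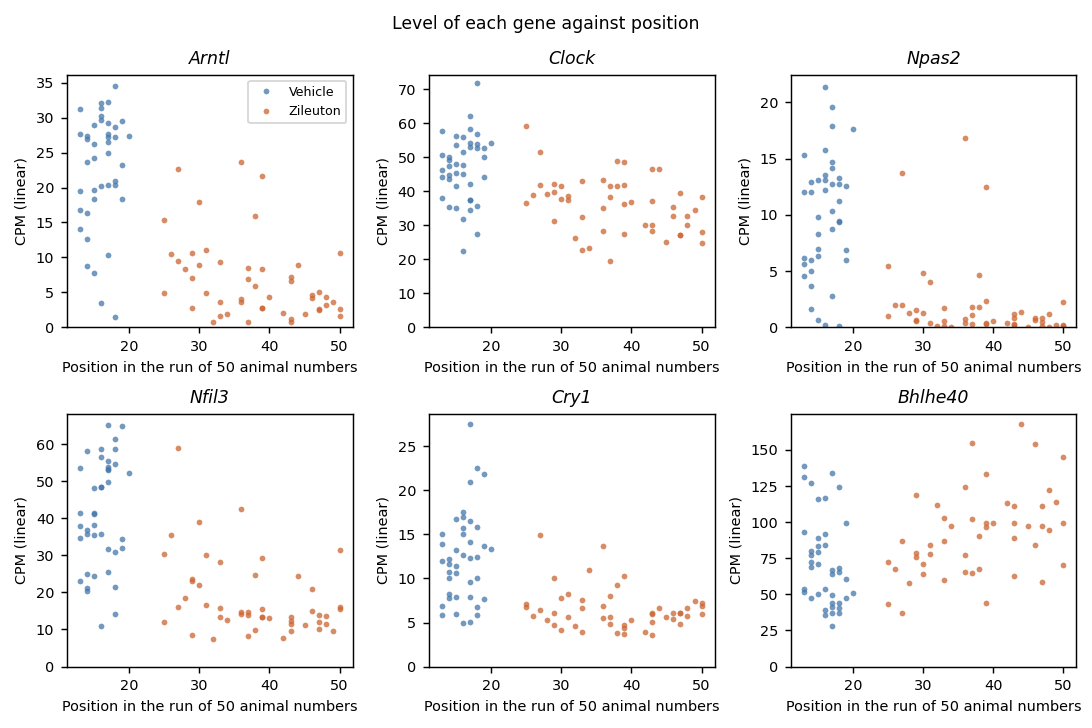
Level in CPM (linear) of each gene against an animal's position in its run of 50 animal numbers, with 1 point per liver. Vehicle animals lie at positions 13 to 20 and zileuton animals at 25 to 50 without overlap, and among zileuton animals Arntl and Npas2 correlate negatively with position (r = −0.361 and −0.396) and Bhlhe40 positively (r = 0.448). The highest Arntl and Npas2 points of that group are at position 36.

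With position as a term beside treatment, none of the 6 differences passed. The log2 fold changes were −0.73 ± 0.239 (SE) for Cry1 with an edgeR adjusted p of 0.0926, −0.58 for Arntl, −0.51 for Nfil3, −0.50 for Npas2 and −0.09 for Clock, while Bhlhe40 turned to −0.12. Because positions of the groups do not overlap, this fit carries a slope shared by both groups across the gap between them. Fitted within each group, slopes per 10 positions had opposite signs in vehicle and zileuton animals for all 6 genes, and none passed. For Arntl they were 0.44 and −0.62, and for Bhlhe40 −1.03 and 0.28. Against the 18 zileuton animals at positions up to 35, the 5 decreases passed (Arntl −1.42, Npas2 −2.10, Nfil3 −0.85, Cry1 −0.81, Clock −0.30) and Bhlhe40, at 0.11 with an edgeR adjusted p of 0.699, did not. Against the 31 animals over 35, an alternative chosen after seeing the data, all 6 passed, with Arntl at −1.94 and Bhlhe40 at 0.49.

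The 5 genes that fell also varied together among animals of the same group. Arntl and Npas2 were the closest pair, with r = 0.958 over 41 vehicle animals (rho = 0.883) and r = 0.875 over 49 zileuton animals (rho = 0.910), both at the smallest p that 100000 permutations can give, 1e-05. Over the 10 pairs without Bhlhe40, r ran from 0.692 to 0.958 in vehicle and from 0.350 to 0.875 in zileuton animals. Some vehicle values rested partly on 2 animals, those most distant from the median of the gene named first. Without such animals, r went from 0.734 to 0.566 for Arntl with Clock and from 0.695 to 0.452 for Clock with Npas2. For Clock it went from 0.735 to 0.573 with Nfil3 and from 0.709 to 0.640 with Cry1. Arntl with Npas2 was then at 0.919. Values of a pair come from the same library and share its scaling, and 30 relations were computed, 15 pairs in each group.

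Bhlhe40 was negatively related to each of the other 5 in both groups, from −0.700 (Nfil3) to −0.497 (Clock) in vehicle and from −0.566 (Arntl) to −0.200 (Cry1) in zileuton animals. The data thus went against the label of an Arntl-phase gene for Bhlhe40. Its relation with Cry1 among zileuton animals did not pass (permutation p = 0.168) and was r = −0.028 once the 2 most distant animals were left out. Npas2 with Cry1 in the same group went from 0.455 to 0.260 in that way, so that value rested partly on 2 animals. Without such animals, Nfil3 in this group went from 0.612 to 0.464 with Cry1 and from −0.375 to −0.258 with Bhlhe40. With position removed, Nfil3 with Bhlhe40 among zileuton animals was −0.260 and no longer passed.

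**Figure D4:**
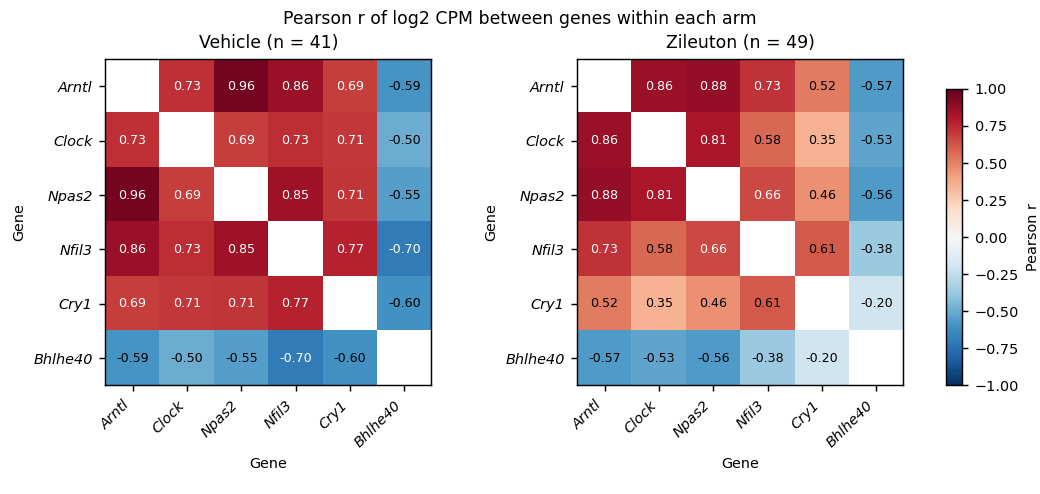
Pearson r of log2 CPM for each pair of the 6 genes over 41 vehicle (left) and 49 zileuton animals (right), coloured from −1 to 1. Pairs of Arntl, Clock, Npas2, Nfil3 and Cry1 are positive in both groups and every pair with Bhlhe40 is negative.

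Single animals with the lowest Arntl among vehicle and the highest among zileuton livers showed how far the genes went together. In vehicle replicate 28, Arntl was at 1.47, Npas2 at 0.14, Nfil3 at 14.1, Clock at 27.5 and Cry1 at 5.89 CPM, each among the 3 lowest of 41, while Bhlhe40 was at 124 CPM, place 37 from the lowest. Vehicle replicate 15 held 3.40 CPM of Arntl, 0.185 of Npas2 and 117 of Bhlhe40, and was the lowest of the vehicle group for Clock, Nfil3 and Cry1. Vehicle replicates 14 and 37, next lowest in Arntl (7.81 and 8.84 CPM), had Bhlhe40 at places 29 and 26 from the lowest of 41. Replicate 14 was at place 7 for Nfil3 and replicate 37 at place 9 for Cry1. At the other end, zileuton replicate 22 had 22.7 CPM of Arntl, 13.7 of Npas2, 59.0 of Nfil3 and 14.9 of Cry1, each among the 2 highest of 49, with the lowest Bhlhe40 of the group, 37.3 CPM. Zileuton replicate 26 had the highest Arntl (23.6 CPM) and Npas2 (16.8 CPM) of its group with a Bhlhe40 of 77.4 CPM. Bhlhe40 did not go the opposite way in zileuton replicate 10, which had the third highest Arntl (21.7 CPM) and Npas2 (12.5 CPM) of its group and a Bhlhe40 of 99.5 CPM, above the group median of 90.2. These animals were picked by their Arntl level and are described, not compared.

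Spread between animals, the mean absolute deviation from the group median of log2 CPM, was larger for Arntl in zileuton animals by 0.48 ± 0.144 (SE) with an unadjusted p of 0.00104 in limma, and did not pass over all genes (adjusted p = 0.208). The difference for Npas2 was 0.49 ± 0.233 (adjusted p = 0.54). Cry1 had −0.15 ± 0.069, Bhlhe40 −0.13 ± 0.071, Nfil3 0.04 ± 0.086 and Clock 0.02 ± 0.044, none passing. Of 11857 genes 0.0337% passed, and these 4 were Ppard, Rhobtb1, Selp and Zfp276, named after their values were seen. Median counts in vehicle and zileuton libraries were 582 and 143 for Arntl and 261 and 22 for Npas2. The part of these lower counts in the spread on the log2 scale was not tested.

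The genes whose levels were most like those of the 6 were found over 90 animals after group means were removed, among 10825 genes. Arntl was most like Npas2 (r = 0.900) and, outside the 6, Chka (0.893), which encodes a choline kinase, Lgalsl (0.832) and Clpx (0.813), a subunit of a mitochondrial protease. Npas2 was followed by Clpx (0.860), Chka (0.858) and Slc30a10 (0.810), a manganese transporter. Clock was followed by Lgalsl (0.825) and Ahctf1 (0.801). Several of these names recur, and Arntl and Npas2 share 2 of their 3.

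Nfil3 was most like Pnrc1 (0.782), Chka (0.770) and Ppard (0.767), a nuclear receptor of lipid metabolism, and Cry1 like Ppard (0.778), Lgalsl (0.679) and Nbeal2 (0.677). The lowest correlations were with clock genes of the opposite phase or with their outputs: Wee1 for Arntl (−0.820), Tef for Clock (−0.753), Per3 for Npas2 (−0.841) and Dbp for Nfil3 (−0.821) and Cry1 (−0.717). Bhlhe40 was most like Tef (0.671), Dbp (0.668) and Tob1 (0.646), and of all 10825 genes its lowest correlation was with Arntl (−0.554). Wee1, Tef, Per3 and Dbp rank among the transcripts that the BMAL1 complexes are known to drive.

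The rest of the clock differed in the opposite direction. Of 8 repressors of the opposite phase all 8 rose (median log2 fold change 0.96), led by Ciart, a repressor of the BMAL1 complexes, at 2.88 ± 0.362 (SE, adjusted p = 8.53e-10), Per3 at 1.81 ± 0.241 (4.47e-09) and Bhlhe41, the paralogue of Bhlhe40, at 1.80 ± 0.321 (5.42e-06). Of 7 PAR bZIP factors and clock outputs all 7 rose (median 1.10), led by Dbp at 2.27 ± 0.415 (adjusted p = 8.31e-06), Usp2, a deubiquitinase, at 2.24 ± 0.280 (8.01e-10) and Wee1, a cell cycle kinase, at 1.75 ± 0.205 (1.02e-10). Among all genes tested 14.4% rose. Bhlhe40 thus lay on the side of these genes, at 0.35, and near the low end of their fold changes.

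Other regulators of the clock that were tested here had log2 fold changes from −0.39 to 0.21. Rora, which encodes a ROR receptor, fell by 0.13 on the log2 scale (adjusted p = 0.0106). Arntl2, the paralogue of Arntl, had medians of 0.0158 and 0.0109 CPM per kb and was not tested. Of 22 kinases, ubiquitin ligases and cofactors of the clock, 4 rose, 3 fell and 15 did not pass, with a median of 0. Over all genes tested, 14.4% rose and 14.8% fell. The 3 with the largest change were Fbxl21, a ligase subunit for cryptochromes, at −0.39, Prkaa2, a subunit of AMP-activated kinase, at 0.21, and Fbxw7 at −0.13.

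**Figure D5:**
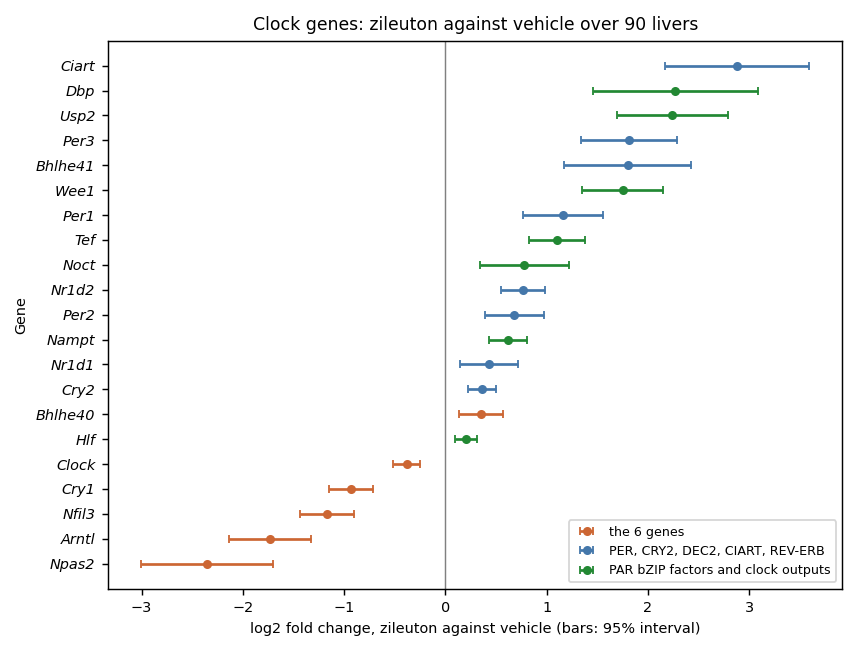
Log2 fold changes of zileuton against vehicle livers with 95% intervals for the 6 genes (orange), repressors of the opposite phase (blue) and PAR bZIP factors and clock outputs (green). Values run from −2.35 for Npas2 to 2.88 for Ciart, and Bhlhe40 (0.35) lies among the genes that rose.

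Markers of liver cell types were read from the same edgeR fit, in which 14.8% of all genes tested fell and 14.4% rose. Of 7 hepatocyte markers 5 fell and 0 rose (median log2 fold change −0.22), and their summed level was 128077 CPM at the vehicle median and 110735 at the zileuton median. Kupffer cell markers, 7 in all, had 0 that passed, with sums from 33.3 to 676 CPM in vehicle and from 64.7 to 436 CPM in zileuton livers. Of 7 endothelial markers 1 fell, of 7 stellate markers 1 rose and 2 fell, of 6 cholangiocyte markers 1 fell, of 5 tested lymphocyte markers 1 fell, and of 2 tested adipose and pancreas markers 1 rose and 1 fell. Their part in the differences of the 6 genes was not tested.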

How the data were processed

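Liver RNA of 90 mice was sequenced from TruSeq libraries on an Illumina HiSeq, after exclusion of RNA with an integrity number below 8, per the labels. One table deposited by the authors holds estimated counts per gene and animal, of which 76.7% were whole numbers. The other deposited table holds a signal, the rounded estimated counts of each animal divided by 1 size factor (relative deviation at most 5e-06 for values above 50). Partek, STAR, DESeq2 and the build mm10 are listed, per the submitters' processing notes. How reads were counted, and on which annotation and strand, is not given in the sources used here. By GENCODE M21, Arntl shares 33 of 7523 exon bases and Bhlhe40 118 of 4705 with a gene on the opposite strand, and the other 4 genes share 0.

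Estimated counts were rounded and tested with edgeR 4.0.16 (quasi-likelihood, robust, TMM, filterByExpr), which left 13248 genes. A call needs a p under 0.05 after Benjamini-Hochberg adjustment over all of them, two-sided. SE is the absolute log2 fold change over the square root of F. Position is the animal number minus 2001, modulo 50, plus 1. Position was fitted within each group on the same 13248 genes. Spread was tested with limma 3.58.1 on log2 CPM (prior count 2, average of 0 or more), and correlations with 100000 permutations on the same scale. Likeness was computed where the average log2 CPM reached 1. The fits were tested on simulated data.

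Named genes are the 6, up to 3 called genes of largest change per clock list, and per gene the 3 others most like it and the 1 least alike. A few genes that this rule or the clock lists hold are not reported here. The 6 genes, the lists and the tests were chosen with earlier results of these data known. Replicates are separate animals, numbered in accession order. Alternatives covered scaling, filter, DESeq2 1.42.0, limma-voom, the deposited normalized values with pseudocounts of 1 and 10, coat colour, run, position, library label, and leaving out animals, runs or libraries. Those added after seeing the data were zileuton animals over position 35, both libraries with muscle transcripts left out, and the treatment by run test.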

Additional observations from a re-analysis of the deposited data

How the results depend on the processing

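The 5 decreases kept their direction under every alternative run, and passed the threshold under all but the 2 with position as a covariate. With position, 217 genes were called in place of 3878, and log2 fold changes were −0.58 (Arntl), −0.09 (Clock), −0.50 (Npas2), −0.51 (Nfil3), −0.73 (Cry1) and −0.12 (Bhlhe40, reversed), with adjusted p-values from 0.0926 to 0.853. With run and position, 225 genes were called and the values were −0.67, −0.10, −1.04, −0.66, −0.80 and −0.21 (Bhlhe40, reversed), with adjusted p-values from 0.0608 to 0.777. Bhlhe40 was at 0.30 without run 6, 0.28 without run 7, 0.28 without run 8 and 0.11 with zileuton animals at positions up to 35, where 1918 genes were called, and passed in none of these. Over the alternatives without position, which include each run left out, the other values ran from −2.14 to −1.63 for Arntl, −0.44 to −0.32 for Clock, −3.46 to −2.18 for Npas2, −1.42 to −1.10 for Nfil3, −1.03 to −0.84 for Cry1 and 0.28 to 0.49 for Bhlhe40. Leaving out 1 animal at a time changed no call of the 6 genes, with 3752 to 4085 genes called. Calls for position among vehicle animals went from 1 to 0 with run as a covariate, 0 with limma-voom and 2 without the 2 farthest animals, and those for the interaction from 1 to 0 with run and 0 without the vehicle library with muscle transcripts. The treatment by run test called 25 genes and 7 without both muscle-bearing libraries. Of the small values, 2 changed sign with run removed: r of Arntl with position among vehicle animals (−0.057) and the spread difference of Nfil3 (−0.01). The cause of these changes was not tested, beyond fewer animals where some were left out. No paired analysis was possible because the labels give no replicate numbers that pair animals. With run as a covariate all 6 genes passed, from −2.85 for Npas2 and −1.94 for Arntl to 0.37 for Bhlhe40. Depth limits Npas2 in zileuton livers, where the median library held 22 counts.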
